A study of Mus musculus with 10 samples.

Results

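NIH3T3 cells, a mouse embryonic fibroblast line, were compared after 16 h at 33 °C and after 16 h at 38 °C, the cool and the warm end of the range over which mammalian body temperature moves. These are the 0 h samples of a pair of temperature-shift courses, 2 of the 10 samples in the series and 4 of its 22 exon columns. All cells were wild type, were seeded at 37 °C for 4 h and were then held at 33 or 38 °C for 16 h, and neither 0 h sample had yet been shifted. The 33 °C sample starts the course that goes on to 38 °C, and the 38 °C sample starts the course that goes on to 33 °C, each followed for 9 h.

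Total RNA was treated with DNase, depleted of ribosomal RNA and sequenced as strand-specific paired-end libraries, so that reads from introns of unspliced transcripts were counted beside reads from exons. Each sample has 2 columns of exon counts and 2 of intron counts, named by a numbered series. Series 2 and 13 hold the 33 °C sample and series 5 and 11 the 38 °C sample, and 33 °C minus 38 °C was taken within 2 pairs, series 2 minus 5 and series 13 minus 11. The labels do not pair the series, so the pairing is a choice made here. Levels below are given in that order, series 2 then 13 at 33 °C and series 5 then 11 at 38 °C. They are RPKM (reads scaled to gene length and to library size), computed from the deposited counts.

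The 2 columns of a sample were counted as 1 sample, so the comparison at 0 h alone has no test. A gene was taken as different where the log2 difference was at least 2-fold in the same direction in both pairs. A test was had only from a model over all 10 samples, with a straight line in log2(h + 1) for each course, in which the 2 starting levels were compared (edgeR, Benjamini-Hochberg adjusted p under 0.05, given below as the fitted difference with its standard error). Its error is the scatter of 1 sample per time around those lines. The labels do not say whether the columns are separate cultures, each series lies in 1 course only, and a difference between series and a difference between temperatures cannot be told apart.

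The 4 columns held 37687981 and 48004854 exon reads at 33 °C and 34667592 and 34005903 at 38 °C. Introns took 32.4% and 34.5% of all counted reads at 33 °C and 37.8% and 38.9% at 38 °C. Fibroblast markers summed to 8039 and 9180 RPKM at 33 °C and 5894 and 6258 RPKM at 38 °C, led by S100a4 and Vim, although Lum was at or near 0. The endothelial list summed to 2.02 and 0.633 RPKM at 33 °C and 1.1 and 0.393 RPKM at 38 °C, and of the macrophage and lymphocyte list only Cd68 was above 1 RPKM. Epcam, Krt5 and Krt18 of epithelia, and Snap25 and Tubb3 of neurons, were at 0 in all 4 columns, while Krt14 was at 14.8 and 43.5 RPKM at 33 °C and 11.7 and 23.7 RPKM at 38 °C.

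Cells a few degrees below body temperature are known to accumulate a small set of cold-inducible RNA-binding proteins, of which Cirbp and Rbm3 are the best known. Cells at or above fever temperature release heat shock factor 1 (HSF1) from its chaperones, and HSF1 then binds heat shock elements in the promoters of chaperone genes. Temperature also alters how fast fibroblasts pass through the cell cycle.

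Of 10209 genes with a mean of at least 1 RPKM over the 4 columns, 161 (1.58%) were at least 2-fold higher at 33 °C in both pairs and 99 (0.97%) at least 2-fold lower, 260 in all (2.55%). When all 4 combinations of a 33 °C with a 38 °C column had to pass, 79 were higher and 53 lower. Of the genes higher at 33 °C, 159 were also called by the fit in that direction, and of those lower 90 were. The fit includes the same 0 h columns, so this overlap is partly built in. The fit itself called many more, 2566 higher (25.1%) and 2186 lower (21.4%). Protein-coding genes made up 156 of the 161 higher genes but 62 of the 99 lower, against 93.2% of all genes tested, and the rest of the lower group held snoRNA, snRNA, microRNA and antisense genes. Scaling to total exon reads instead gave 119 higher and 132 lower. Across genes, which are not independent replicates, the differences of the 2 pairs correlated with r = 0.365. At the 2-fold line, Ntpcr lay just inside, with log2 differences of 1.005 and 1.15, and Klhdc8a just outside, with 1.03 and 0.999. On the lower side Troap lay just inside, with -1.37 in series 2 and 5 and at the line in the other pair, and Irf9 just outside, with -1.05 and -0.997.

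**Figure D1:**
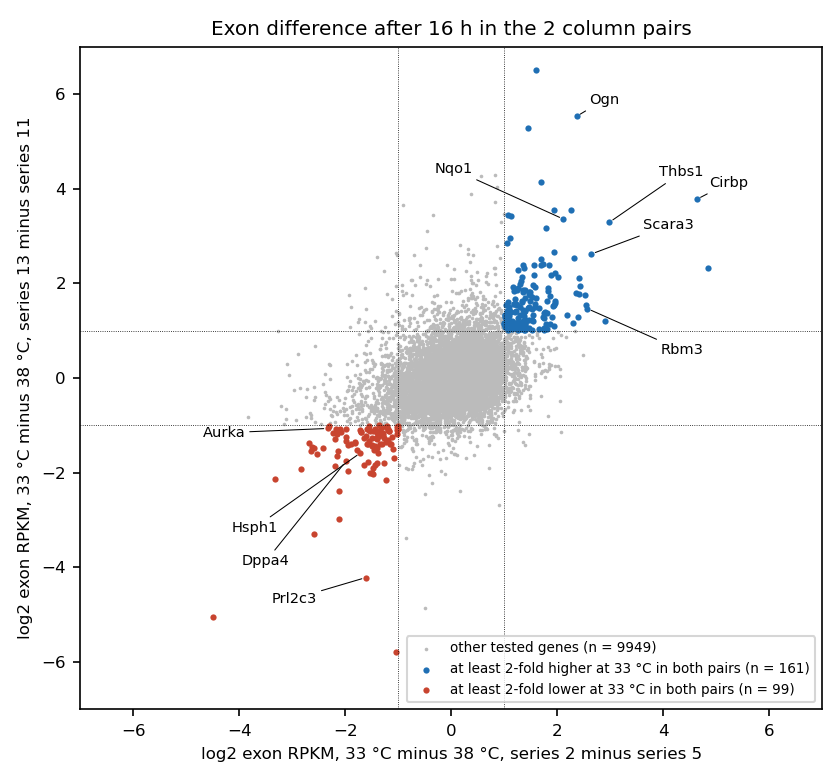
Log2 exon difference, 33 °C minus 38 °C, of each of the 10209 tested genes in the pair of series 2 and 5 (horizontal) and of series 13 and 11 (vertical), with dotted lines at 2-fold. The 161 blue genes were at least 2-fold higher at 33 °C in both pairs and the 99 red genes at least 2-fold lower, and Cirbp has the largest difference shared by both pairs among protein-coding genes (4.64 and 3.78).

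Cirbp, the cold-inducible RNA-binding protein, had 35.4 and 29.3 exon RPKM at 33 °C, against 1.32 and 2.04 RPKM at 38 °C. Both 33 °C columns stood far above both 38 °C columns. The log2 differences were 4.64 and 3.78, the largest shared by both pairs among protein-coding genes, and the fitted difference was 4.10 ± 0.39 (SE, adjusted p = 3.44e-05). Its gene lies at chr10:80165985-80172786 on the plus strand (GRCm38). The RefSeq window from 250 bases before to 50 bases after a start site of Cirbp (GRCm38.p6, chr10:80167589-80167888, plus strand) is shown because it holds the letters of the mild-cold response element TCCCCGCC, described for this gene in mouse cells, here in capitals.
Cirbp: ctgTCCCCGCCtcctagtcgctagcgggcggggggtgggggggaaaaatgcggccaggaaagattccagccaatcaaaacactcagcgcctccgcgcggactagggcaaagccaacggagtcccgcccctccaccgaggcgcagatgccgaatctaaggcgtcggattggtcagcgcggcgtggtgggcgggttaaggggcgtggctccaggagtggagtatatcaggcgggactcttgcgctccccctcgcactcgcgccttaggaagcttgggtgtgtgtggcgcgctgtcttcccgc
This match begins 247 bases before the start site, and the other RefSeq window of Cirbp holds none. On either strand, TCCCCGCC stood in 5.38% of all 32851 windows. Counted by gene, in any of its windows, it stood in 12.1% of tested protein-coding genes with a window. Of 115 such genes higher at 33 °C, 12 held it (10.4%), a share no greater than among tested genes.

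Rbm3, the second cold-inducible RNA-binding protein (chrX:8138975-8145880, minus strand), had 64.7 and 45.5 exon RPKM at 33 °C, against 10.8 and 16.4 RPKM at 38 °C. The columns of the 2 temperatures did not overlap. The log2 differences were 2.57 and 1.47 and the fitted difference 2.18 ± 0.18 (adjusted p = 1.64e-05). A gene on the opposite strand overlaps Rbm3, and whether strand was used in counting is not given in the sources used.

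Cirbp and Rbm3 were the only 2 of the 9 tested members of the list of cold-inducible and cold-shock-domain proteins past 2-fold in both pairs, against 1.58% of all genes. The list's medians were 0.22 and 0.04, against 0.05 and -0.03 over all tested genes. Ybx1, a cold-shock-domain protein that packs messenger RNA, had 340.2 and 316 RPKM at 33 °C and 383 and 462 RPKM at 38 °C, with a fitted difference of -0.31 ± 0.05 (adjusted p = 0.000622). Srsf5, a splicing factor, had 89.6 and 66.4 RPKM at 33 °C and 57.2 and 52.3 RPKM at 38 °C, which missed the test (fitted 0.29 ± 0.23, adjusted p = 0.329). Rbm5 and Carhsp1 missed it too, with adjusted p = 0.593 and 0.345.

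Genes of the extracellular matrix were higher at 33 °C. Thbs1, which encodes the matrix glycoprotein thrombospondin 1, had 117 and 81.9 RPKM at 33 °C, against 14.7 and 8.26 RPKM at 38 °C (fitted 3.37 ± 0.23, adjusted p = 8.87e-06). Col5a3, a fibrillar collagen chain, had 34.9 and 21.5 RPKM at 33 °C and 6.51 and 4.87 RPKM at 38 °C (log2 2.40 and 2.12). Col11a1, another fibrillar collagen, had 3.76 and 13.5 RPKM at 33 °C and 0.708 and 1.06 RPKM at 38 °C (log2 2.26 and 3.54). Both collagens separated the temperatures in every column, and their fitted differences were 2.25 ± 0.16 (adjusted p = 1.03e-05) for Col5a3 and 2.65 ± 0.11 (adjusted p = 8.03e-07) for Col11a1.

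Ogn, osteoglycin, a small leucine-rich proteoglycan, had 4.06 and 22.1 RPKM at 33 °C and 0.705 and 0.378 RPKM at 38 °C. The size of its difference was uneven, log2 2.37 in the pair of series 2 and 5 and 5.54 in the other. Fstl1, a secreted glycoprotein, had 257 and 236 RPKM at 33 °C, against 63.5 and 53.3 RPKM at 38 °C, with nearly equal log2 differences of 2.02 and 2.14 (fitted 2.02 ± 0.14, adjusted p = 1.01e-05). Scara3, a scavenger receptor family member, had 8.99 and 14.9 RPKM at 33 °C and 1.35 and 2.34 RPKM at 38 °C (log2 2.65 and 2.62).

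In the fibroblast matrix list, which holds collagens, their crosslinking enzymes and other matrix proteins, 6 of 22 tested members were past 2-fold in both pairs, Col6a1, Fbn1, Loxl1, Timp3, Thbs1 and Dcn, and none was in the lower direction. Over all genes 1.58% were higher by this rule and 0.97% lower. All 22 were higher at 33 °C in both pairs, with medians of 0.69 and 1.126, and the fit called all 22 higher, against 25.1% of all genes. Fbn1, the microfibril protein fibrillin 1, had 101 and 113 RPKM at 33 °C and 36.5 and 40.2 RPKM at 38 °C (log2 1.46 and 1.49). Loxl1, a lysyl oxidase that crosslinks elastin, had 117 and 97.3 RPKM at 33 °C and 44.8 and 26.8 RPKM at 38 °C (log2 1.39 and 1.86). The most abundant collagen, Col1a1, had 496 and 894 RPKM at 33 °C and 335 and 412 RPKM at 38 °C, short of 2-fold in the first pair (log2 0.57 and 1.12). Col12a1 shows how far the pairs could part, with log2 differences of 0.82 and 3.71. Elastin, Eln, fell under the filter on low values, with 1.17 and 1.67 RPKM at 33 °C and 0.0675 and 0.0838 RPKM at 38 °C. The summed fibroblast markers, given above, were higher at 33 °C in the same columns, and share Col1a1, Col1a2, Col3a1 and Dcn with this list. Their part in the difference was not tested.

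**Figure D2:**
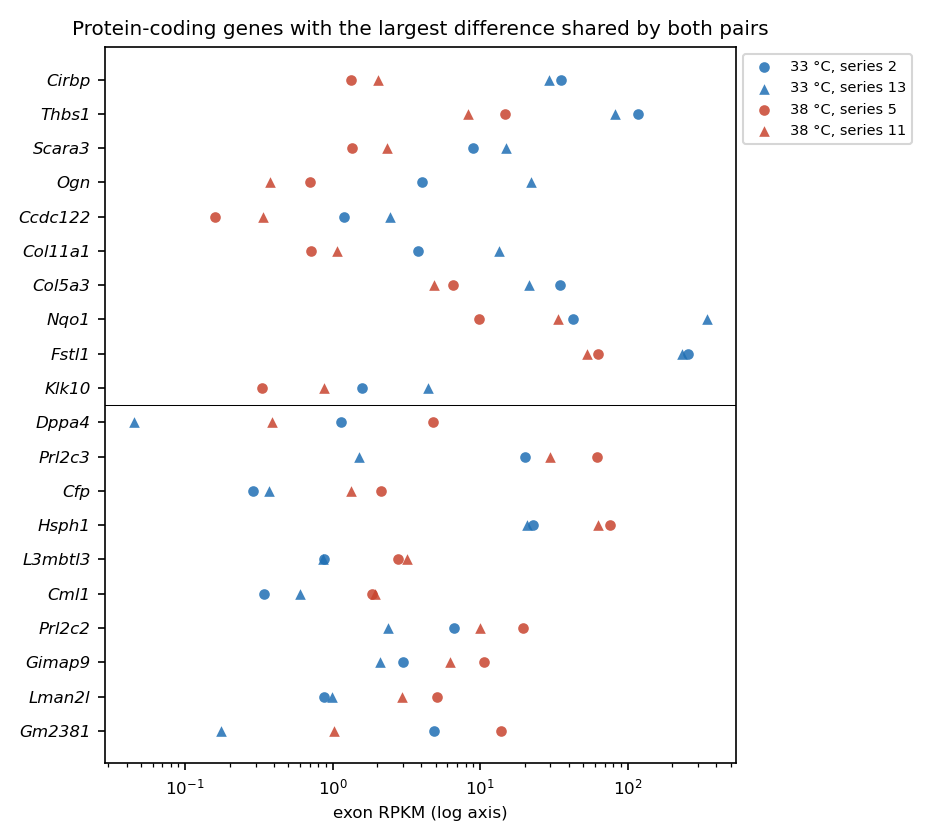
Exon RPKM on a log axis in the 4 columns at 0 h for the 10 protein-coding genes with the largest difference shared by both pairs in each direction, those higher at 33 °C above the line and those lower below it. In series 2 and 5 (circles) and in series 13 and 11 (triangles) the blue 33 °C point lies on the same side of its red 38 °C partner, while for Dppa4 and Gm2381 the columns of the 2 temperatures overlap.

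Several cytosolic chaperones of the heat shock response were lower at 33 °C. Hsph1, the HSP110 chaperone (chr5:149614287-149636376, minus strand), had 23.0 and 20.9 RPKM at 33 °C, against 75.7 and 62.9 RPKM at 38 °C (log2 -1.71 and -1.58). Hsp90aa1, the inducible HSP90, had 289.6 and 125 RPKM at 33 °C, against 698 and 433 RPKM at 38 °C (log2 -1.27 and -1.79, fitted -1.27 ± 0.22, adjusted p = 0.00103). Chordc1, an HSP90 co-chaperone (chr9:18292125-18317442, plus strand), had 9.00 and 5.34 RPKM at 33 °C and 24.6 and 11.4 RPKM at 38 °C (log2 -1.44 and -1.08). For each of the 3, both 33 °C columns lay below both 38 °C columns. The fit missed Hsph1 (-0.91 ± 0.56, adjusted p = 0.207) and Ahsa2 (adjusted p = 0.0557), although Hsph1 was more than 2-fold lower in both pairs, and it called Chordc1 (-1.07 ± 0.34, adjusted p = 0.027).

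The RefSeq windows of Hsph1 (chr5:149636287-149636586, minus strand) and Chordc1 (chr9:18292017-18292316, plus strand) are shown because they hold the core of a heat shock element, GAANNTTC, in capitals.
Hsph1: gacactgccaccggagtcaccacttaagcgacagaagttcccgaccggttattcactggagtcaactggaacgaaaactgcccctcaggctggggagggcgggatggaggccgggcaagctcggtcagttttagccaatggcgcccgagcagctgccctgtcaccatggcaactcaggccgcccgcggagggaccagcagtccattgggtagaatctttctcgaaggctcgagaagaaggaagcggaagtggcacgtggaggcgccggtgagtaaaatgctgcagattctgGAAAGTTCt
Chordc1: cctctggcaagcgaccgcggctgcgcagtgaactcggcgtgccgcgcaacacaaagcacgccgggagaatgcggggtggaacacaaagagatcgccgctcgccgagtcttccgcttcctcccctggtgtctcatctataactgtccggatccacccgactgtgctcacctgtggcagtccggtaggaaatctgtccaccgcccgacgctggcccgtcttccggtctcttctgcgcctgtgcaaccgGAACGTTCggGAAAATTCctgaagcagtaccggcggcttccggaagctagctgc
In Hsph1 the match begins 41 bases after the start site, and in Chordc1 matches begin 4 bases before and 6 bases after it. On either strand, GAANNTTC stood in 7.86% of all windows. Counted by gene, it stood in 11 of the 31 list members with a window (35.5%), against 6.83% of tested protein-coding genes with a window. Fkbp4, Hspd1, Hspe1 and Dnaja1 were among the other holders.

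In the HSF1 chaperone list 4 of 39 tested members were at least 2-fold lower in both pairs, against 0.97% of all genes, and none was higher. The medians were -0.41 and -0.65, and the fit called 21 lower and 2 higher, against 21.4% and 25.1% of all genes. Its lower calls included co-chaperones of HSP90, among them Stip1 (-1.07 ± 0.18, adjusted p = 0.000935), Fkbp4 (-1.02 ± 0.15, adjusted p = 0.000409) and Ahsa1 (-1.001 ± 0.18, adjusted p = 0.00131). The mitochondrial pair Hspd1 and Hspe1 fitted at -0.83 ± 0.13 and -0.93 ± 0.09. Serpinh1, the collagen chaperone of the endoplasmic reticulum, had 454 and 386 RPKM at 33 °C, against 944 and 677 RPKM at 38 °C (fitted -1.04 ± 0.11, adjusted p = 6.09e-05), the opposite direction to the collagens. Subunits of the chaperonin that folds actin and tubulin were split by pair. Cct5, for example, had log2 differences of 0.06 and -1.09, and Cct8 of 0.11 and -0.77. The classical inducible HSP70, Hspa1b, had 0.78 and 4.98 RPKM at 33 °C and 5.78 and 6.66 RPKM at 38 °C and was not called (adjusted p = 0.422).

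Chaperones of the endoplasmic reticulum did not share this pattern across the pairs. Of 21 tested, none was past 2-fold in both, against 2.55% of all genes in either direction. The medians were -0.40 and 0.18, and the fit called 5 higher and 8 lower, where 25.1% and 21.4% of all genes were. Pdia4, a disulfide isomerase, had 41.5 and 57.5 RPKM at 33 °C and 115 and 93.3 RPKM at 38 °C (fitted -1.14 ± 0.12, adjusted p = 6.83e-05). Txndc5, of the same enzyme family, had 109.7 and 114 RPKM at 33 °C and 79.4 and 85.1 RPKM at 38 °C (fitted 0.47 ± 0.06, adjusted p = 0.000135).

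Genes of G2 phase and mitosis were lower at 33 °C. Aurka, the Aurora A kinase of the spindle poles (chr2:172356190-172370535, minus strand), had 21.9 and 27.5 RPKM at 33 °C, against 110.3 and 57.6 RPKM at 38 °C (log2 -2.33 and -1.07, fitted -1.73 ± 0.19, adjusted p = 9.16e-05). Kif20a, a kinesin of cytokinesis, had 25.8 and 34.8 RPKM at 33 °C and 111 and 72.9 RPKM at 38 °C (log2 -2.10 and -1.07). Cenpf, a kinetochore protein, had 4.50 and 11.6 RPKM at 33 °C and 40.8 and 23.0 RPKM at 38 °C, and narrowly missed 2-fold in the second pair (log2 -3.15 and -0.98). All 3 separated the temperatures in every column, and each difference was larger in series 2 and 5.

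Aurka's RefSeq window (chr2:172370521-172370820, minus strand) is shown because it holds TTTGAA, the core of the cell cycle genes homology region, in capitals, 32 bases after the start site.
Aurka: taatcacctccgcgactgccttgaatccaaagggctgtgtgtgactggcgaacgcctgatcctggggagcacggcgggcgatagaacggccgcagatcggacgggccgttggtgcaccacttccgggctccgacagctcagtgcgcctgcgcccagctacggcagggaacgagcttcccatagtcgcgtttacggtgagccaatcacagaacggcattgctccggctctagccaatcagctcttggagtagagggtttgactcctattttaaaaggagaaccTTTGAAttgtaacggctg
Of 33 list members with a window, 25 (75.8%) held TTTGAA and 27 (81.8%) held CCAAT on either strand. Of tested protein-coding genes with a window, 13.9% and 44.1% did. Counted by window rather than by gene, the shares of all windows were 17.9% and 37.4%.

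In bulk RNA, fewer cells in mitosis and less of these RNAs per cell cannot be told apart. All 40 members of the mitosis list were lower at 33 °C in both pairs. Only Kif20a and Aurka were past 2-fold in both, against 0.97% of all genes. In series 2 and 5 alone 29 members were at least 2-fold lower, as were 590 of all 10209 genes. In series 13 and 11 alone only these 2 members were, as were 273 of all 10209 genes. The medians were -1.54 and -0.58, and the fit called 37 lower and none higher, against 21.4% of all genes, leaving out Aurkb, Cdc25b and Incenp. Plk1, the Polo kinase, had 14.2 and 28.7 RPKM at 33 °C and 68.8 and 49.7 RPKM at 38 °C. Ccnb1, cyclin B1, had 14.5 and 21.0 RPKM at 33 °C and 58.5 and 27.9 RPKM at 38 °C. Intron reads of these genes moved with their exon reads, with intron medians of -1.53 and -0.53 and 36 of 40 called lower by the intron fit, against 32.8% of all genes. The exon-to-intron ratio had medians of -0.06 and -0.04, against 0.32 and 0.25 over all genes. With introns on a scale of their own the intron medians were -1.22 and -0.27 and the fit called 22 of 40 lower, against 3.5% of all genes. On that scale the ratio medians were -0.37 and -0.30, against 0.01 and -0.01 over all genes, and the ratio fit called 12 lower, against 5.54%. On the exon scale Aurka's exon level was 9.18 and 8.29 times its intron level at 33 °C, and 9.10 and 8.92 times at 38 °C, and on the other its ratio differed by -0.30 and -0.37.

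The genes of S phase differed between the pairs. The 47 tested replication-dependent histone genes had a median of 1.27 in series 2 and 5, where 38 were at least 2-fold higher at 33 °C, but of 0.09 in series 13 and 11, where none was. Of all 10209 genes, 491 were at least 2-fold higher in the first of these pairs and 567 in the second. Hist1h1c, a linker histone, had 665 and 325 RPKM at 33 °C and 182 and 215 RPKM at 38 °C. The fit, which takes both series together, called 41 higher, against 25.1% of all genes, and none lower. The 31 genes of G1/S and DNA replication had medians of 0.72 and -0.48. Mcm5, of the replicative helicase, had 68.1 and 37.8 RPKM at 33 °C and 38.9 and 59.0 RPKM at 38 °C, which leaves no common direction, and was not called (fitted -0.10 ± 0.13, adjusted p = 0.543). Pcna, the replication clamp, likewise had log2 differences of 0.82 and -0.52. Of the 3 cell cycle lists, only the mitotic one kept its direction in both pairs for every member.

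**Figure D3:**
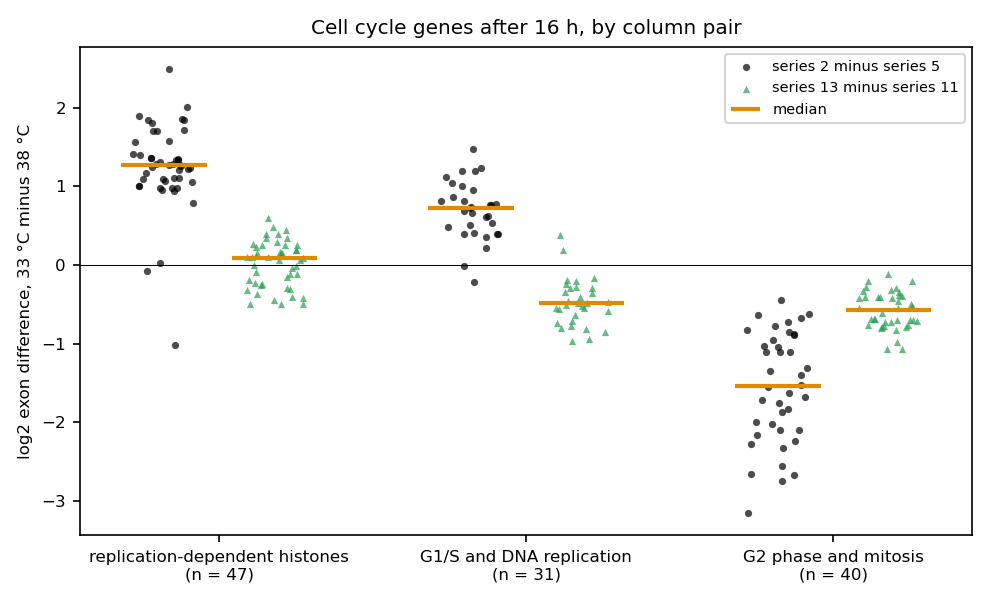
Log2 exon difference, 33 °C minus 38 °C, of each tested member of 3 cell cycle lists in the pair of series 2 and 5 (black circles) and of series 13 and 11 (green triangles), with the median as an orange bar. Points of the mitosis list lie below 0 in both pairs, while the G1/S list has a median of 0.72 in the first pair and -0.48 in the second.

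Targets of NRF2, the transcription factor of the antioxidant response, were mostly higher at 33 °C. Nqo1, a quinone reductase, had 42.9 and 347 RPKM at 33 °C, against 9.80 and 33.7 RPKM at 38 °C (log2 2.12 and 3.36, fitted 3.16 ± 0.25, adjusted p = 1.61e-05). Gsta4, a glutathione transferase, had 119 and 100.1 RPKM at 33 °C and 35.1 and 38.6 RPKM at 38 °C (log2 1.75 and 1.37). Nqo1 levels of the 2 columns of a temperature were themselves several-fold apart, whereas those of Gsta4 were close. The 2 were the members past 2-fold in both pairs of 19 tested, against 1.58% of all genes. The medians were 0.65 and 0.54, and the fit called 15 higher, against 25.1% of all genes, and none lower. Hmox1, the heme oxygenase that NRF2 shares with other stress factors, was not among them (log2 -1.22 and 0.12, adjusted p = 0.658). The antioxidant response core TGACNNNGC stood in 7 of the 14 list members with a window (50.0%), against 17.2% of tested protein-coding genes with a window. Counted by window rather than by gene, it stood in 12.4% of all windows.

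Targets of p53 were mixed. Ccng1, cyclin G1, had 61.8 and 84.5 RPKM at 33 °C, against 246 and 178 RPKM at 38 °C (log2 -1.99 and -1.08, fitted -1.42 ± 0.09, adjusted p = 4.97e-06). Eda2r, the ectodysplasin A2 receptor, had 11.1 and 7.33 RPKM at 33 °C and 32.6 and 14.9 RPKM at 38 °C (log2 -1.55 and -1.01). They were the 2 of 19 tested members past 2-fold in both pairs, against 0.97% of all genes. The fit called 21.4% of all genes lower and 25.1% higher. Of the list it called 8 lower, among them Mdm2, the ubiquitin ligase of p53 (-0.74 ± 0.18, adjusted p = 0.00647), and 3 higher, Sesn1, Plk2 and Rrm2b. Gtse1, one of the 8, is also a gene of G2 phase.

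Actin cytoskeleton targets of the serum response factor were higher mainly in the first pair. Their medians were 1.08 and 0.40, and the fit called 13 of 18 higher, against 25.1% of all genes, and none lower. Myl9, a myosin light chain, was the 1 member past 2-fold in both (1.58% of all genes were), with 46.0 and 22.1 RPKM at 33 °C and 20.4 and 5.78 RPKM at 38 °C. Vcl, vinculin of focal adhesions, had 61.2 and 48.7 RPKM at 33 °C and 23.3 and 30.5 RPKM at 38 °C (fitted 1.01 ± 0.12, adjusted p = 0.000123). Ctgf, a matricellular target of YAP, had 115 and 23.5 RPKM at 33 °C and 19.9 and 6.89 RPKM at 38 °C (log2 2.52 and 1.75). Its columns within a temperature were several-fold apart. Klf2, an immediate early factor, was past 2-fold as well (log2 1.75 and 1.02, fitted 0.91 ± 0.22, adjusted p = 0.00719).

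Other lists held few or no members past 2-fold in both pairs. None of the 73 ribosomal protein genes, 37 genes of oxidative phosphorylation, 31 proteasome subunits or 31 core spliceosome genes was. Over all genes 2.55% were in either direction, a share at which lists of this size hold few or none. Medians of the spliceosome list were 0.19 and -0.39 and those of the cholesterol list -0.28 and 0.57, of opposite sign in the pairs. Dyrk3, a kinase of the CLK and DYRK group that control splicing factors, was the single member of 9 past the line, which 0.97% of all genes were in this direction, with 2.32 and 2.26 RPKM at 33 °C and 5.44 and 4.97 RPKM at 38 °C (fitted -0.998 ± 0.17, adjusted p = 0.000999). Parpbp, a PARP1-binding protein in DNA repair, was the single one of 15 repair and centriole genes past it, with 3.24 and 4.34 RPKM at 33 °C and 16.4 and 8.85 RPKM at 38 °C.

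**Figure D4:**
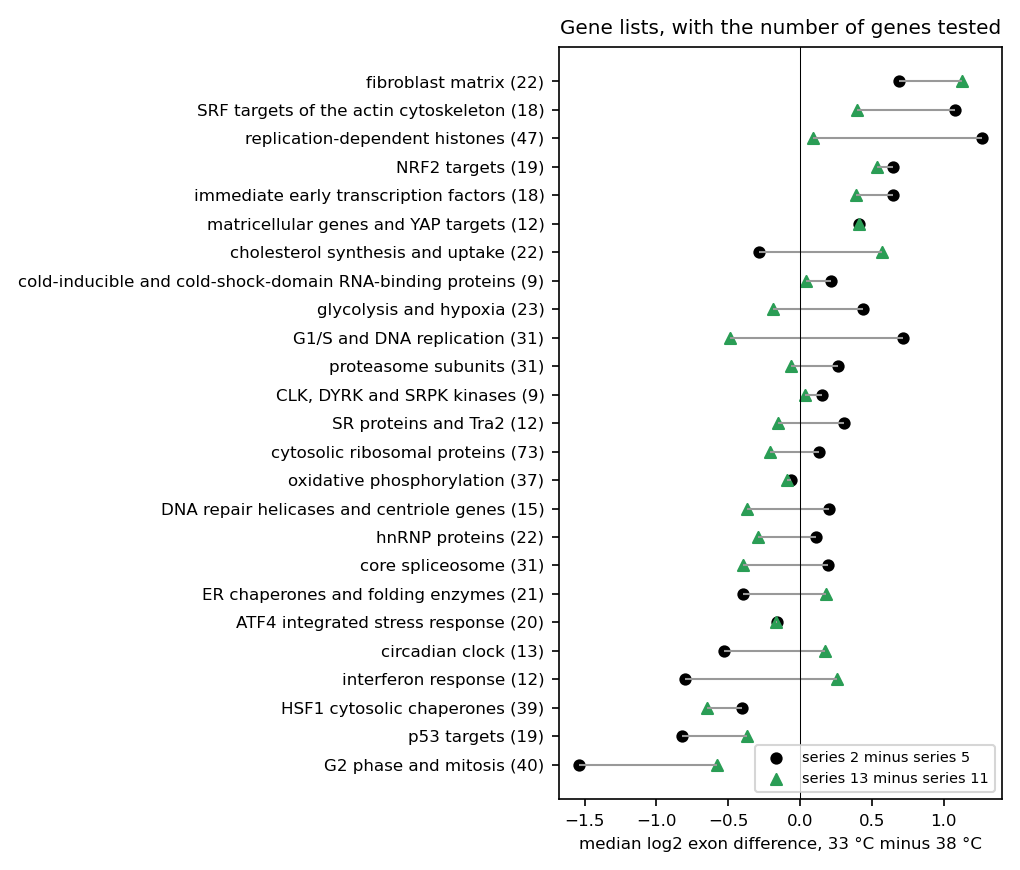
Median log2 exon difference, 33 °C minus 38 °C, of each gene list with at least 5 tested genes, in the pair of series 2 and 5 (black circles) and of series 13 and 11 (green triangles), with the number of tested genes in parentheses. The matrix list lies above 0 in both pairs (0.69 and 1.126), the HSF1 list (-0.41 and -0.65) and the mitosis list (-1.54 and -0.58) below 0 in both, and several lists change sign between pairs.

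Several of the genes with the largest shared difference among those lower at 33 °C belong to none of the lists. Prl2c3, a prolactin family hormone also known as a proliferin, had 20.2 and 1.51 RPKM at 33 °C and 62.2 and 29.8 RPKM at 38 °C. Its near-identical relative Prl2c2 had 6.70 and 2.39 RPKM at 33 °C and 19.5 and 9.91 RPKM at 38 °C, and reads of the 2 may be shared in a way the counting rule, not given here, would decide. Cfp, complement properdin, had 0.287 and 0.372 RPKM at 33 °C and 2.13 and 1.33 RPKM at 38 °C. L3mbtl3, a reader of methylated histones, had 0.869 and 0.857 RPKM at 33 °C and 2.79 and 3.19 RPKM at 38 °C, with close columns at both temperatures (fitted -2.02 ± 0.19, adjusted p = 3.24e-05). Dppa4, a gene of pluripotent cells, was low, at 1.14 and 0.0448 RPKM at 33 °C and 4.80 and 0.389 RPKM at 38 °C, and here series differed more than temperature.

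Intron reads come mainly from RNA not yet spliced. Of 9381 genes with measured introns, 32 were at least 2-fold higher at 33 °C in both pairs (0.341%) and 123 lower (1.31%), 155 in all (1.65%), and the fit called 217 higher (2.31%) and 3074 lower (32.8%). The balance of higher and lower genes depended on the scale. On the exon scale the median intron difference over all genes was -0.26 and -0.27, and with introns on a scale of their own it was 0.05 and -0.01, the pair counts became 66 higher and 42 lower, and the fit called 680 higher and 328 lower. Introns of Thbs1 were at 5.23 and 4.07 RPKM at 33 °C, against 0.805 and 0.50 RPKM at 38 °C (log2 2.69 and 3.00, fitted 2.78 ± 0.35, adjusted p = 0.00106), close to its exon difference. Introns of Mgp, matrix Gla protein, were at 0.683 and 0.897 RPKM at 33 °C and at 0.103 and about 0 RPKM at 38 °C. Agt, angiotensinogen, had 0.0481 and 0.206 intron RPKM at 33 °C and 0.00114 and 0.0115 at 38 °C. Levels of Agt in both 38 °C columns, and of Mgp in series 11, lay near or below the pseudocount of 0.01 RPKM. The size of those differences rests partly on it. On the lower side L3mbtl3 had 0.172 and 0.199 intron RPKM at 33 °C and 0.676 and 0.748 at 38 °C (log2 -1.92 and -1.86). Introns of Atp6v0e2, Hist1h2bp and Hapln4 also ranked among the most lowered, but their exons were not past 2-fold in both pairs. Log2 exon differences were -0.047 and -1.41 for Atp6v0e2, 1.222 and -0.489 for Hist1h2bp, and -0.495 and -0.042 for Hapln4.

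Among the 148 genes with higher exon levels at 33 °C and measured introns, introns were also past 2-fold in 26, the exon-to-intron ratio in 41, and neither in 82. Of all genes with measured introns, 0.341% were past 2-fold higher in introns and 1.79% in the ratio. The medians of the 148 were 1.39 and 1.48 for exons, 0.60 and 0.64 for introns and 0.85 and 0.82 for the ratio. Among the 75 with lower exon levels, introns were past 2-fold in the same direction in 34 and the ratio in 6, against 1.31% and 0.0959% of all genes. The medians of the 75 were -1.53 and -1.27 for exons, -1.28 and -1.02 for introns and -0.22 and -0.29 for the ratio. These medians are on the exon scale, on which the median ratio over all genes was 0.32 and 0.25, and 0.01 and -0.01 with introns on their own scale. The ratio contains the exon level by which these genes were chosen, in the same columns, so its shift partly follows from that choice.

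The ratio itself was at least 2-fold higher at 33 °C in both pairs for 168 genes (1.79%) and lower for 9 (0.0959%), 177 in all (1.89%), and the fit called 3086 higher (32.9%) and 117 lower (1.25%). With introns on their own scale the pair counts were 59 higher and 25 lower and the fit's 568 higher and 520 lower, so this balance depended on the scale too. Cirbp was past 2-fold on both scales. Its exon level was 14.4 and 15.02 times its intron level at 33 °C and 1.38 and 1.48 times at 38 °C, a log2 difference of 3.29 and 3.28 (fitted 3.59 ± 0.38, adjusted p = 0.00039), and with introns on their own scale 2.98 and 3.02. Its introns were at 2.46 and 1.95 RPKM at 33 °C and 0.963 and 1.37 RPKM at 38 °C, and their fit missed the threshold (0.53 ± 0.23, adjusted p = 0.0989).

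Rbm3 introns were at 4.14 and 3.67 RPKM at 33 °C, against 5.46 and 5.59 RPKM at 38 °C, and their fitted difference, of the other sign, was not called (0.08 ± 0.27, adjusted p = 0.835). Rbm3 had a ratio of 15.6 and 12.4 at 33 °C, against 1.98 and 2.93 at 38 °C (fitted 2.14 ± 0.19, adjusted p = 0.000171). Cela1, a pancreatic-type elastase, had a ratio of 8.44 and 11.6 at 33 °C and 1.47 and 2.03 at 38 °C (log2 2.36 and 2.44, fitted 2.87 ± 0.26). Fstl1 had 72.7 and 72.5 at 33 °C and 26.7 and 28.9 at 38 °C (fitted 1.52 ± 0.12, adjusted p = 0.000171). Scara3 had 13.2 and 13.6 at 33 °C and 2.89 and 3.51 at 38 °C (fitted 2.10 ± 0.27, adjusted p = 0.000661). In each of these genes the columns of the 2 temperatures did not overlap. Rbm3, Cela1, Fstl1 and Scara3 stayed past 2-fold in both pairs with introns on their own scale.

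In Thbs1, by contrast, the ratio was 22.4 and 20.1 at 33 °C and 18.3 and 16.5 at 38 °C, a fitted difference of 0.57 ± 0.22 that missed the test (adjusted p = 0.0644). Hsp90aa1 had 77.0 and 78.7 at 33 °C and 76.1 and 79.6 at 38 °C, on the exon scale within the spread of the columns. Its introns were more than 2-fold lower in both pairs (log2 -1.28 and -1.77), but the intron fit was not called (-0.575 ± 0.438, adjusted p = 0.32). The ratio fit of Hsp90aa1 was not called either (-0.517 ± 0.294, adjusted p = 0.19). With introns on their own scale the log2 ratio differences were -0.296 and -0.284 for Hsp90aa1 and -0.009 and 0.032 for Thbs1. Rmi2, of the complex that dissolves recombination intermediates, had the clearest lower ratio, 0.686 and 0.740 at 33 °C against 5.38 and 4.63 at 38 °C (fitted -1.80 ± 0.46, adjusted p = 0.0125). Rdm1 had 1.54 and 1.60 at 33 °C against 5.84 and 4.42 at 38 °C, and its fit missed the threshold (-0.82 ± 0.44, adjusted p = 0.161). Ubxn2b, a cofactor of the p97 ATPase, had 1.87 and 1.33 at 33 °C against 4.56 and 4.08 at 38 °C (fitted -0.94 ± 0.27, adjusted p = 0.0207). Bglap2 and Enho also ranked here and among the higher introns, but had no intron read at 38 °C, where 3 reads would make 0.173 and 0.171 RPKM for Bglap2 and 0.0936 and 0.0926 for Enho, so their differences rest on the pseudocount.

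**Figure D5:**
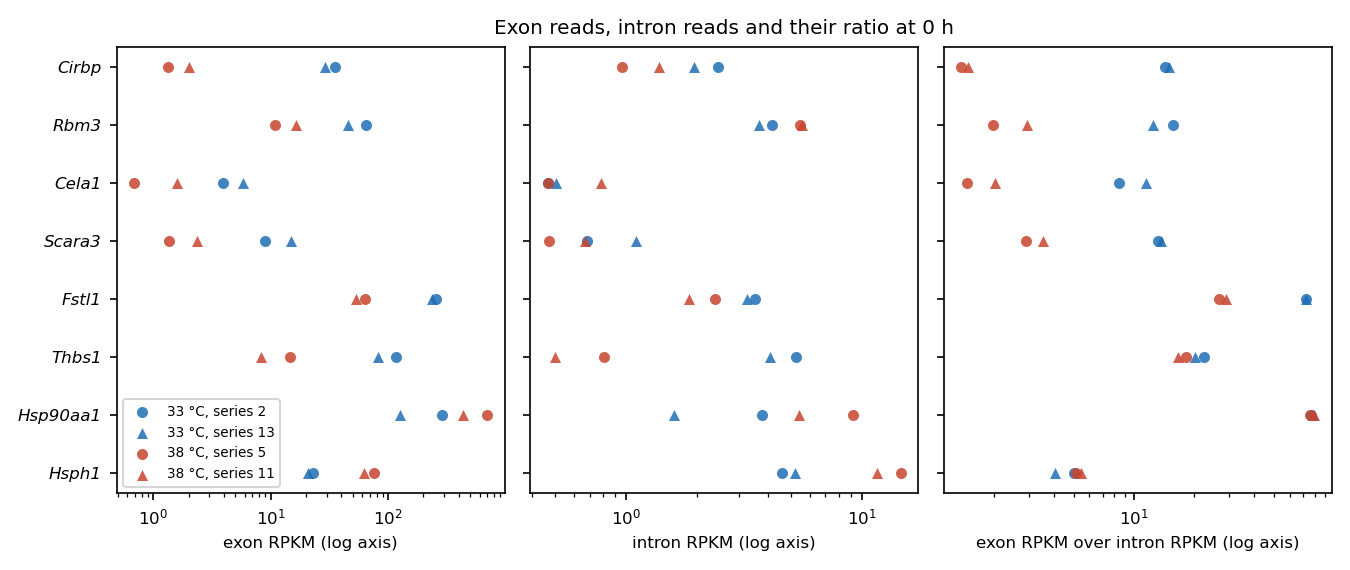
Exon RPKM, intron RPKM and their quotient on log axes in the 4 columns at 0 h for 8 genes, blue for 33 °C and red for 38 °C, circles for series 2 and 5 and triangles for series 13 and 11. Cirbp, Rbm3, Cela1, Scara3 and Fstl1 part by temperature in the ratio, whereas Thbs1 and Hsp90aa1 part in exons and introns alike and overlap or nearly so in the ratio. All values are on the exon scale.

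Not every gene with a large difference did the same in both pairs. Of all tested genes 3114 were higher at 33 °C in both pairs, 2945 lower in both and 4150 of opposite sign, and 29 were at least 2-fold apart in opposite directions. Trp53inp1, a p53 target, had 0.573 and 10.7 RPKM at 33 °C and 6.37 and 5.29 RPKM at 38 °C (log2 -3.27 and 1.00). Angptl4, a secreted lipase inhibitor, had 25.6 and 3.46 RPKM at 33 °C and 9.62 and 9.40 RPKM at 38 °C (log2 1.40 and -1.42). Tlr2, a receptor of innate immunity, had 0.745 and 8.22 RPKM at 33 °C and 1.64 and 1.24 RPKM at 38 °C (log2 -1.04 and 2.63). In these 3 the 38 °C columns were close and the 33 °C columns far apart. Over all genes the 2 columns of the 33 °C sample were less alike than those of the 38 °C sample, with log2 levels correlating at 0.929 against 0.962.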

How the data were processed

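The 2 tables deposited by the authors hold estimated counts of exon and intron reads, although their names speak of RPKM. The estimated counts, deposited with fractions, were rounded for the fits. Alignment was to mm10, with STAR and bedtools listed per the submitters' processing notes. Annotation, intron definition and counting rules are not given in the sources used. The title of the 33 °C sample is mistyped, so it was placed by its description.

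RPKM used TMM factors of the exon columns (edgeR 4.0.16, limma 3.58.1, R 4.3.3), also for introns, and lengths from GENCODE M21 (GRCm38), which held 36308 of 38087 identifiers (95.3%). Log2 differences used pseudocounts of 0.1 exon and 0.01 intron RPKM, which understates those of low genes. Tested genes had a mean of at least 1 exon RPKM, and for introns and ratios also 0.05 intron RPKM. The 2 columns of a sample held different counts (chi-square over df 313.3 at 33 °C and 151.4 at 38 °C), which does not tell separate libraries from separate cultures.

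The edgeR quasi-likelihood fit used the 10 samples with columns summed, an offset per gene for their mix, and a line per course. The ratio was the interaction with read type. Standard errors are the difference over the square root of F. P-values were adjusted over all tested genes and measure only the scatter of samples around the lines, which may be technical. That scatter also holds any departure of a course from a straight line. The fit was checked on simulated counts with flat courses and a fixed spread, which cannot tell how it behaves on courses that bend. DESeq2 1.42.0 was an alternative.

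Genes were named by rule: Cirbp, Rbm3, the 10 protein-coding genes per direction with the largest exon difference shared by the pairs, 5 each for introns and ratios, and up to 4 per list. Not every gene so named is described above, for example Foxred2 and Lrrn4cl with higher ratios. Others, such as Eln, Col1a1, Mcm5 and genes of opposite sign in the pairs, were chosen after their values were seen. The comparison, its members and all lists were chosen with earlier results of these data known.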

Additional observations from a re-analysis of the deposited data

How the results depend on the processing

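The 260 exon genes past 2-fold in both pairs became 119 with a pseudocount of 1 RPKM, 543 without a filter, 963 at 1.5-fold, 132 when all 4 combinations of columns had to pass, 649 from summed columns, 1081 in series 2 and 5 alone and 840 in series 13 and 11 alone. The 155 intron genes became 88 with a pseudocount of 0.1 RPKM, 843 at 1.5-fold, 921 in series 2 and 5 and 585 in series 13 and 11. The 177 ratio genes became 84 with introns on their own scale, 94 with pseudocounts of 1 and 0.1 RPKM, 1181 at 1.5-fold, 481 in series 2 and 5 and 306 in series 13 and 11. These counts follow from the construction of each alternative. With introns on their own scale, chosen after seeing the data, the fits called 1008 genes for introns and 1088 for the ratio, against 3291 and 3203, and in series 13 and 11 alone the ratio fit called 808, where the cause was not tested. The pair count of exons stayed within 1.5 times under DESeq2 size factors and total exon reads, and the exon fit under DESeq2 size factors, DESeq2, no filter, linear time and either set of series. Leaving out each sample in turn, the exon fit called between 3514 genes, without the 38 °C sample at 0 h, and 4910, and 3607 without the 33 °C sample at 0 h. Without its 0 h sample a starting level is read from the later samples alone. No paired analysis was possible because each group is 1 sample and the labels do not pair the series of the 2 courses. Every difference at 0 h rests on 1 sample per temperature, and the intron levels of low genes on few reads.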

Other observations

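Several further genes, all but Pdgfrb outside the lists, were at least 2-fold higher at 33 °C in both pairs. They were chosen after their values were seen and with no test as a group. C3, the central component of complement, had 4.42 and 0.415 RPKM at 33 °C and 0.501 and 0.124 RPKM at 38 °C. C4b, another complement component, had 20.5 and 2.10 RPKM at 33 °C and 7.99 and 0.502 RPKM at 38 °C, and C1s, a complement protease, had 14.96 and 6.24 RPKM at 33 °C and 5.73 and 1.16 RPKM at 38 °C. The 2 columns of a temperature were at least as far apart as the temperatures for C3 and C4b, and both genes in series 13 at 33 °C lay below their level in series 5 at 38 °C, so the columns of the 2 temperatures overlapped. Masp1, a protease of the lectin pathway, had 3.60 and 3.30 RPKM at 33 °C and 1.66 and 1.01 RPKM at 38 °C. Aspn, a proteoglycan related to Ogn, had 0.978 and 6.68 RPKM at 33 °C and 0.294 and 0.0738 RPKM at 38 °C, and Slurp1, a secreted peptide, had 11.4 and 102 RPKM at 33 °C and 3.43 and 5.71 RPKM at 38 °C. Pdgfrb, a receptor for platelet-derived growth factor and a member of the fibroblast marker list, had 28.9 and 68.4 RPKM at 33 °C and 13.6 and 24.1 RPKM at 38 °C.

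Among genes lower at 33 °C, Notch1, a receptor of cell-to-cell signalling, had 2.80 and 3.17 RPKM at 33 °C and 7.12 and 8.55 RPKM at 38 °C, and the gene model of the microRNA Mir34a, a known p53 target, had 1.71 and 1.22 RPKM at 33 °C and 5.02 and 5.24 RPKM at 38 °C. Lars2, a mitochondrial leucyl-tRNA synthetase, had 1.46 and 1.14 RPKM at 33 °C and 3.131 and 68.9 RPKM at 38 °C, so that most of its second difference (log2 -5.79) lies in series 11.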
